A study of Mus musculus with 6 samples.

Results

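The C/EBP, PU.1 and Gfi1 factors are DNA-binding proteins that steer blood progenitors toward granulocytes and monocytes. They were taken by gene symbol: the C/EBP genes Cebpa, Cebpb, Cebpd, Cebpe and Cebpg, the PU.1 gene Spi1, and the zinc finger genes Gfi1 and Gfi1b. All 8 were present among the 24054 genes of the TPM table, and all 8 passed the filter on low values. Expression was measured by RNA-seq in c-Kit+ spleen cells of 6 mice, enriched with CD117 beads from moribund animals, with 1 library per mouse. The AML group (acute myeloid leukaemia) held 3 mice, Flt3ITD/ITD, Dnmt3afl/- and MxCre. The MPN group (myeloproliferative neoplasm) held 3 mice, Flt3ITD/ITD and Dnmt3afl/fl, with no Cre in their titles. The homozygous internal tandem duplication of Flt3, a receptor tyrosine kinase of progenitors, was thus shared by both groups. MxCre is driven by an interferon-inducible promoter that is active in many tissues, so the Cre was not limited to blood cells. Whether the floxed allele had been removed is not given in the labels, and neither are the ages of the mice. Dnmt3a alleles, Cre and disease changed together, so their parts in any difference cannot be told apart.

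C/EBP proteins share a basic leucine zipper and bind DNA as dimers. C/EBP-alpha is needed for granulocyte-monocyte progenitors to form, C/EBP-epsilon for the later granules of neutrophils, and C/EBP-beta and C/EBP-delta for emergency granulopoiesis and inflammation. PU.1 is an ETS factor whose level helps to set the choice between macrophages, granulocytes, dendritic cells and lymphocytes. Gfi1 and Gfi1b are repressors with a shared SNAG domain that recruits the demethylase LSD1. Gfi1 acts in stem cells and neutrophils, where it opposes PU.1, and Gfi1b acts in red cell and platelet precursors.

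Promoter sequences can be searched for letters that match the binding sites of these factors. Those of the 3 genes whose mRNA rose in AML are shown with that of Gfi1b for contrast. RefSeq promoter entries on GRCm38.p6 matched 5 of the 8 genes, namely Cebpa, Cebpb, Cebpg, Gfi1 and Gfi1b. Each line gives the 250 bases before the transcription start, 5′ to 3′ on the strand of the gene. Capitals mark matches, on either strand, to a C/EBP site (TTGCNNAA), a PU.1 core (GAGGAA), the Gfi1 core (AATC) or a GATA site (AGATAA). The windows are chr7:35119043-35119292 (plus strand) for Cebpa, chr2:167688665-167688914 (plus strand) for Cebpb, chr5:107725806-107726055 (minus strand) for the upstream start of Gfi1 and chr2:28621983-28622232 (minus strand) for Gfi1b.
Cebpa: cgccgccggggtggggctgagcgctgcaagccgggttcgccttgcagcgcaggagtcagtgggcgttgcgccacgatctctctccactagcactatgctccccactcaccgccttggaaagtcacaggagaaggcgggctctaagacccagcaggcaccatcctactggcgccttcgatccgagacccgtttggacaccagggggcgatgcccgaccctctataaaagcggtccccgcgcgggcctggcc
Cebpb: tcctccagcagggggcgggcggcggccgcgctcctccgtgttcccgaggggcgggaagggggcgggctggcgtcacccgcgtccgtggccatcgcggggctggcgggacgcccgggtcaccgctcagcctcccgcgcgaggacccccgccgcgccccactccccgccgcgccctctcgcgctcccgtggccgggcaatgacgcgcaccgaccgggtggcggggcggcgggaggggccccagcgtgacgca
Gfi1: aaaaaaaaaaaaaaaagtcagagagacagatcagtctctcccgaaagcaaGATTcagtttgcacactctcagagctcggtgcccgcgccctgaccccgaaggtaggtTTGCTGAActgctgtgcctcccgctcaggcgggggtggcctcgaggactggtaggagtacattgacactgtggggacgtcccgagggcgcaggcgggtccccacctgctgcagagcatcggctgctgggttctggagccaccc
Gfi1b: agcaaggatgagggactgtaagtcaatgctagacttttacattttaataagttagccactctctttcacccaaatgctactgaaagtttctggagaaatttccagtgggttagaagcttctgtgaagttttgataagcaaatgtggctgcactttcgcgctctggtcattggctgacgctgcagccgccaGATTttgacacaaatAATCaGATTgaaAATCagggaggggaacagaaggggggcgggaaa

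The Gfi1b window held 4 Gfi1 cores, beginning 60, 45, 40 and 33 bases before the start. Among 32851 such windows of all genes, 69.0% held at least 1 Gfi1 core and 7.04% held at least 4. The upstream Gfi1 window held 1 Gfi1 core at 200 bases and 1 C/EBP match at 143 bases before the RefSeq start. The GENCODE gene positions given below place the upstream end of Gfi1 at base 107726036. By those positions most of this window, with both matches, lies inside the gene. A second Gfi1 start in RefSeq, whose window chr5:107724344-107724593 is not printed, held 0 matches to the 4 motifs. A C/EBP match was present in 9.56% of all windows, a PU.1 core in 23.3% and a GATA site in 9.99%. Letters matching any of these motifs were absent from the windows of Cebpa and Cebpb, whose bases were 66.4% and 81.6% G or C. Matches of letters are a description of these windows and show no binding.

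Across the series, depth read from the steps of low RPKM values lay between 0.744 and 1.30 relative to the median library, highest in AML replicate 1 and lowest in AML replicate 3. Dnmt3a, the targeted gene, had 11.5, 13.5 and 12.9 TPM in AML and 33.9, 29.3 and 33.4 TPM in MPN, in the direction of the labels, although a value for the whole gene does not show whether the floxed exons were lost. Kit, the marker of the bead selection, was read at 99.2 to 152 TPM in the 6 libraries. MPN replicate 1 came from another sequencing run than the other 5 libraries, and without it Gfi1 and Cebpa passed the test described below and Cebpb did not. AML replicates 1 and 2 had Xist, the transcript of the inactive X of females, above 1 TPM and the other 4 mice did not, so sex also differed between the groups. The labels do not say how the mice were related. The p-values rest on the spread between these mice and take them as independent. These are bulk libraries, in which fewer cells of a type and less RNA per cell cannot be told apart.

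Gfi1, Cebpa and Cebpb rose in AML. Cebpd, Cebpe, Cebpg, Spi1 and Gfi1b did not pass the test. The test was limma on log2(TPM + 1) over 12223 genes, with p-values adjusted over all of them by the Benjamini-Hochberg method and a threshold of 0.05. Of all tested genes, 20.1% were called higher and 10.0% lower in AML, 30.1% in all, and the share of 3 in 8 factors is near that background. No factor was called lower by limma, although 2, Cebpd and Spi1, had an unadjusted p under 0.05 in that direction. The values of the groups did not overlap for 5 of the 8 factors, against 50.9% of all tested genes.

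**Figure D1:**
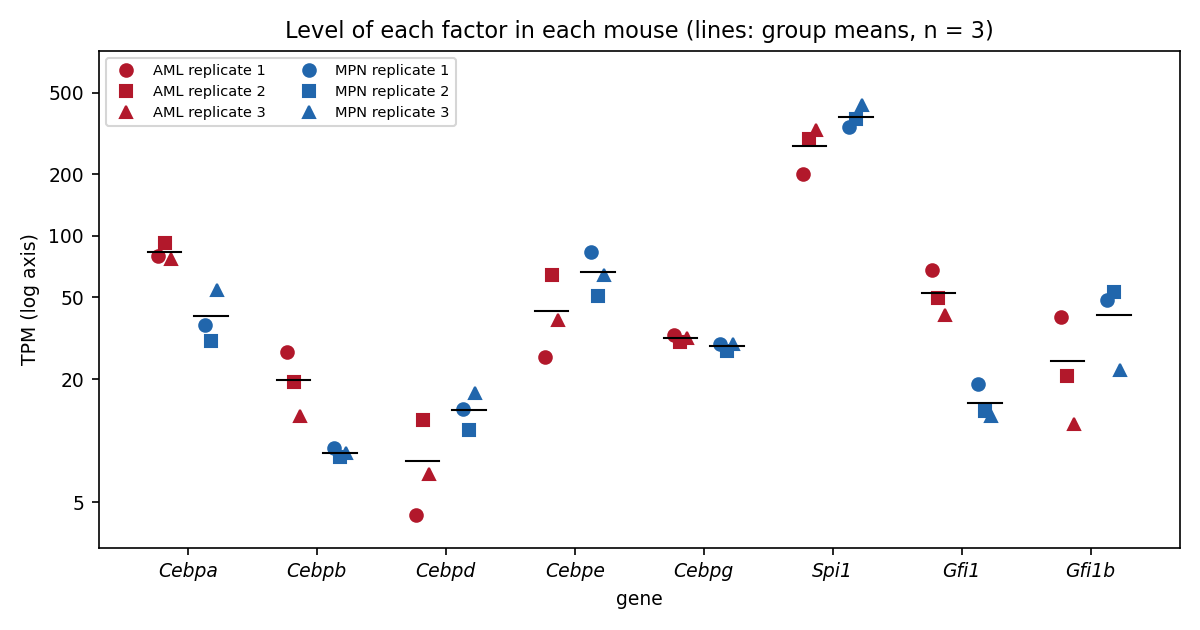
TPM (transcript level scaled to library and length, log axis) of the 8 factors in each mouse, with symbols for replicates, red for AML, blue for MPN and a line at each group mean (n = 3). For Gfi1 the AML mice lie at 40.9 to 67.7 TPM and the MPN mice at 13.1 to 18.9 TPM.

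Gfi1 had the largest fold change of the 8. Its mRNA measured 67.7, 49.8 and 40.9 TPM in the AML mice, given here and below in the order of replicates 1 to 3, against 18.9, 13.95 and 13.1 TPM in the MPN mice. The lowest AML mouse was thus above the highest MPN mouse. The means were 52.8 ± 13.7 and 15.3 ± 3.13 TPM (SD, n = 3 each), a ratio of 3.44. On the log2(TPM + 1) scale the rise was 1.71 ± 0.22 (SE), with a limma adjusted p of 0.00184. Its fold change was higher than that of 97.5% of all tested genes. Gfi1 passed under each of the 16 alternative settings, with log2 fold changes of 1.38 to 1.87.

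Gfi1b, its paralog in erythroid and megakaryocytic cells, did not follow it. Gfi1b measured 40.3, 20.75 and 12.0 TPM with AML, and 48.5, 52.9 and 22.0 TPM with MPN. The groups overlapped, and within each group the mice differed by more than 2-fold. The log2 fold change was -0.80 with a 95% interval of -1.89 to 0.30 (limma adjusted p = 0.229). With array weights, which give less weight to mice that fit less well, Gfi1b was called lower (log2 fold change -1.38, limma adjusted p = 0.00631). Gfi1b passed in only this 1 of 16 alternatives, and the estimation of these weights stopped before convergence.
The erythroid markers of each mouse can be set beside Gfi1b. The summed TPM of 8 erythroid markers was 255, 79.5 and 4.57 with AML, the order of Gfi1b in these mice, and 439, 369 and 190 with MPN. MPN replicate 3 was the lowest of its group in both measures. Of these markers 1 was called lower and 7 did not pass, and Slc4a1, a red cell membrane protein, ranged from 0.10 to 78.3 TPM among the AML mice. Megakaryocyte markers, of which 3 of 7 were called higher and 4 did not pass, summed to 91.3 to 128 TPM in AML and 38.5 to 70.1 TPM in MPN. The part of either lineage in the Gfi1b values was not tested.

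Cebpa encodes C/EBP-alpha, the factor on which granulocyte-monocyte progenitors depend. The AML mice had 80.1, 92.5 and 76.9 TPM, and the MPN mice 36.9, 30.5 and 54.5 TPM. Each AML mouse was above each MPN mouse. The means of 83.2 ± 8.23 and 40.6 ± 12.4 TPM (SD, n = 3 each) gave a ratio of 2.05 and a log2 rise of 1.05 ± 0.21 (SE; limma adjusted p = 0.00984). With a term for sex, which sets AML replicate 3 against the MPN mice, the log2 fold change was 0.94 and did not pass (limma adjusted p = 0.108). The other 15 alternatives kept the call.

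Cebpb, whose product takes over granulocyte production under stress, was lower in level and rose by a like factor. Its values were 27.1, 19.4 and 13.1 TPM with AML, against 9.19, 8.35 and 8.69 TPM with MPN. The MPN mice lay close together and the AML mice spread over a 2-fold range, all above them. The ratio of means was 2.27, and the log2 rise of 1.04 ± 0.25 (SE) had a limma adjusted p of 0.0188. Leaving out AML replicate 2 ended the Cebpb call (limma adjusted p = 0.0534), and so did leaving out any of the MPN mice (limma adjusted p = 0.0532, 0.0687 and 0.0663 for replicates 1 to 3), while the log2 fold change stayed at 1.01 to 1.08. It also ended with the term for sex, where the log2 fold change was 0.54 (limma adjusted p = 0.255). The AML mouse in that last comparison, replicate 3, had the lowest Cebpb of its group.

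Cebpe, the factor of late neutrophil granules, was the most abundant C/EBP transcript in each MPN mouse. MPN mice had 83.8, 50.7 and 64.4 TPM, and AML mice 25.7, 64.4 and 39.0 TPM. AML replicate 2 lay within the MPN range and the other AML mice lay below it. The log2 fold change was -0.68 with a 95% interval of -1.44 to 0.09 (limma adjusted p = 0.152). Without AML replicate 2 it was -1.01 and was called lower (limma adjusted p = 0.0399).
Mature neutrophil markers followed the same order of mice within each group. Summed over 9 such markers, TPM reached 6885, 20615 and 14517 with AML, and 48248, 30426 and 39726 with MPN. Cebpe and this sum had the same highest and lowest mouse in AML and in MPN. Of the 9 markers 7 were called lower and 2 did not pass. The part of neutrophil content in the Cebpe values was not tested.

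Cebpd, a C/EBP gene induced in inflammation and in maturing myeloid cells, was low throughout. With AML it measured 4.32, 12.7 and 6.86 TPM, and with MPN 14.2, 11.2 and 17.0 TPM. As for Cebpe, AML replicate 2 lay within the MPN range. The log2 fold change was -0.85 with a 95% interval of -1.65 to -0.06, and the limma adjusted p was 0.0967. Without AML replicate 2 Cebpd was called lower, with a log2 fold change of -1.21 (limma adjusted p = 0.0235).

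Cebpg encodes a short C/EBP protein without an activation domain, which pairs with other zipper proteins such as ATF4. It was the steadiest of the 8, at 32.9, 30.3 and 31.6 TPM with AML and 29.8, 27.3 and 29.7 TPM with MPN. The groups did not overlap, but the ratio of means was only 1.09. The log2 fold change of 0.12 lay next to the median of all tested genes, 0.13, and its 95% interval ran from -0.14 to 0.39 (limma adjusted p = 0.437).

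Spi1, the PU.1 gene, was the most abundant of the 8 in every mouse. Its values reached 200, 297 and 327 TPM with AML, and 339, 372 and 434 TPM with MPN. The groups did not overlap, although AML replicate 3 and MPN replicate 1 lay close together. The means were 275 ± 66.8 and 381 ± 48.3 TPM (SD, n = 3 each). The log2 fold change was -0.50 with a 95% interval of -0.96 to -0.03, and did not pass (limma adjusted p = 0.0963). It passed under 0 of 16 alternatives, with limma adjusted p of 0.0503 to 0.662.

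**Figure D2:**
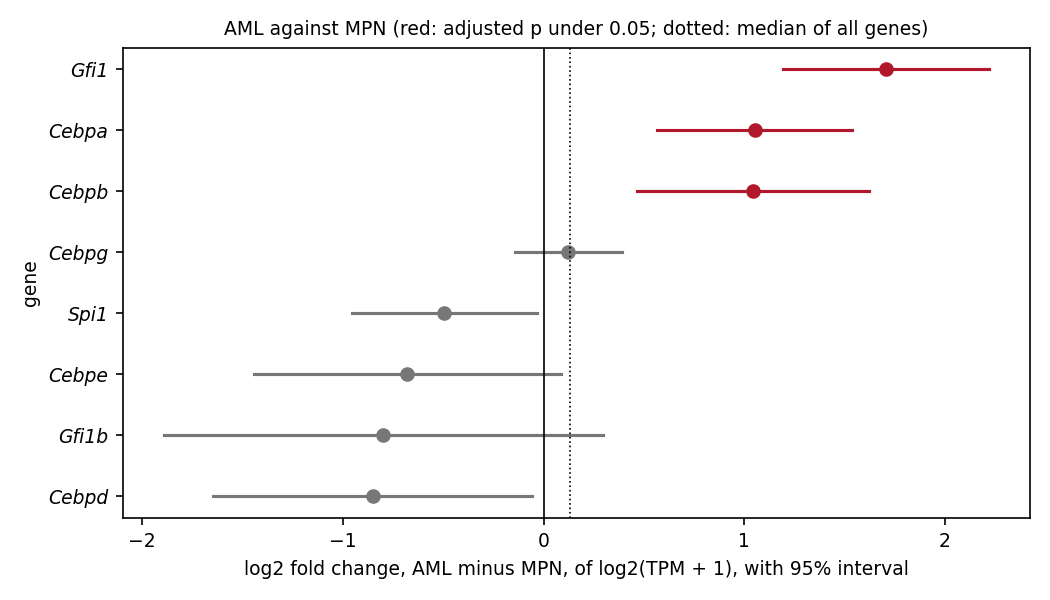
Log2 fold change of each factor, AML minus MPN, on the log2(TPM + 1) scale, with its 95% interval from limma over 3 mice a group. Gfi1, Cebpa and Cebpb, in red, passed at 1.71, 1.05 and 1.04, and the dotted line is the median of all tested genes at 0.13.

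Set in order of level within each group, Spi1 led in both. In MPN it was followed by Cebpe, Gfi1b, Cebpa, Cebpg, Gfi1, Cebpd and Cebpb, with mean TPM of 66.3, 41.2, 40.6, 28.9, 15.3, 14.2 and 8.74. The ranges of Cebpe and Gfi1b, of Gfi1b and Cebpa, and of Gfi1 and Cebpd overlapped, so these neighbours had no clear order. In AML, Spi1 was followed by Cebpa, Gfi1, Cebpe, Cebpg, Gfi1b, Cebpb and Cebpd, with mean TPM of 83.2, 52.8, 43.0, 31.6, 24.4, 19.9 and 7.94. From Gfi1 down to Cebpb each neighbouring pair overlapped, while Cebpa lay clear of Gfi1, and Cebpb of Cebpd.

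The C/EBP genes together amounted to a similar total in both groups, of 170, 219 and 168 TPM with AML and 174, 128 and 174 TPM with MPN. Their make-up differed more than their total. Cebpa gave 47.1%, 42.2% and 45.9% of the total with AML, and 21.2%, 23.8% and 31.3% with MPN. For Cebpe the shares were 15.1%, 29.4% and 23.3% with AML, and 48.2%, 39.6% and 36.9% with MPN. Cebpa thus led in each AML mouse and Cebpe in each MPN mouse, and the groups did not overlap for either share. The share of Cebpg was 13.8% to 19.3% in AML and 17.1% to 21.3% in MPN, with overlap.

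**Figure D3:**
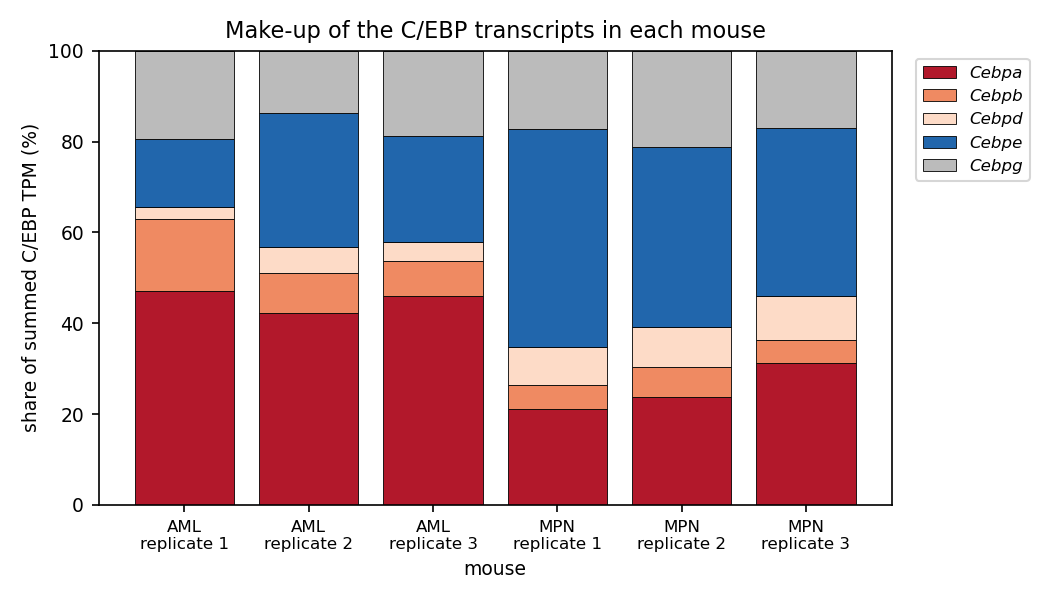
Share of each C/EBP gene in the summed C/EBP TPM of each mouse, in percent, as stacked bars from 0 to 100. Cebpa takes 42.2% to 47.1% in the AML mice and 21.2% to 31.3% in the MPN mice.

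Ratios between factors within a mouse were compared because several of them act against each other. TPM is scaled to transcript length, so levels of different genes in a library can be set side by side. For 6 ratios of log2(TPM + 1), groups were compared by exact permutation of the mice, two-sided. With 3 a group such a test cannot go below 0.1, so that none could pass 0.05. Gfi1 per Spi1, antagonists in the choice between granulocytes and monocytes, was 0.125 to 0.339 in AML and 0.0303 to 0.0559 in MPN as a plain ratio of TPM. The log2 ratio was higher in AML by 2.20 (means -2.36 ± 0.73 and -4.56 ± 0.43, SD, n = 3 each), without overlap (exact permutation p = 0.1, Benjamini-Hochberg adjusted p = 0.15). AML replicate 1, with the highest Gfi1 and the lowest Spi1, had the highest ratio.
Cebpa per Spi1 was also higher in AML, by 1.55 on the log2 scale, at 0.235 to 0.401 against 0.0822 to 0.126. Cebpe per Cebpa was 0.321 to 0.696 in AML and 1.18 to 2.27 in MPN, a log2 difference of -1.73. Gfi1 per Gfi1b was 1.68 to 3.40 in AML and 0.264 to 0.596 in MPN, a log2 difference of 2.50, so that the more abundant of the paralogs was Gfi1 in each AML mouse and Gfi1b in each MPN mouse. For each of these 3 ratios the exact permutation p was 0.1 and the adjusted p 0.15.
The ratio of Cebpa to Cebpb was 2.96 to 5.85 in AML and 3.66 to 6.27 in MPN, with a log2 difference of 0.01 (exact permutation p = 1, adjusted p = 1). Spi1 per Gata1, the PU.1 gene set against the erythroid factor that it opposes, ranged from 9.66 to 241 in AML and from 6.30 to 18.1 in MPN. Those groups overlapped (log2 difference 1.85, exact permutation p = 0.2, adjusted p = 0.24), and Gata1 itself ranged from 1.36 to 20.7 TPM among the AML mice and from 24.0 to 53.8 TPM among the MPN mice (limma adjusted p = 0.0523).

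**Figure D4:**
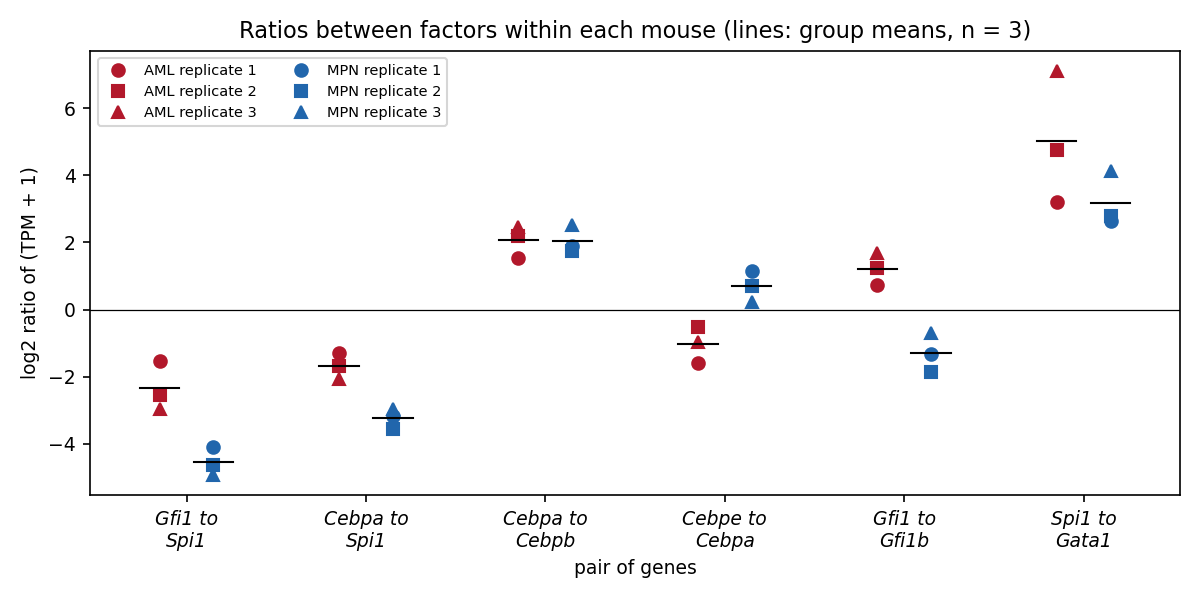
Log2 ratio of (TPM + 1) for 6 pairs of genes in each mouse, red for AML and blue for MPN, with a line at each group mean (n = 3). The groups stand apart for Gfi1 to Spi1, Cebpa to Spi1, Cebpe to Cebpa and Gfi1 to Gfi1b, and overlap for Cebpa to Cebpb and Spi1 to Gata1.

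Among the AML mice the 8 factors varied. AML replicate 1 had the highest Gfi1, Gfi1b, Cebpb and Cebpg of its group and the lowest Spi1, Cebpd and Cebpe. AML replicate 2 had the highest Cebpa, Cebpd and Cebpe. AML replicate 3 had the highest Spi1 and the lowest Gfi1, Gfi1b, Cebpa and Cebpb. Some markers had under 1 TPM in every AML mouse. They met the filter of 1 TPM in 3 libraries through the MPN mice, where they were high. Their number is given beside each count as reaching the filter in MPN only. Others, such as C1qa, Cx3cr1, Cd8a and Cd79a, reached 1 TPM in some AML mice but in fewer than 3. These also needed the MPN mice to meet the filter and are not in that number. Monocyte and macrophage markers (10 genes, 8 called lower, of which 2 reached the filter in MPN only, and 2 not passed) summed to 575, 1653 and 764 TPM with AML and to 1310 to 1423 TPM with MPN. Much of these sums was Ly6c2, which did not pass. It measured 461, 1366 and 479 TPM with AML and 723, 751 and 623 TPM with MPN. C1qa and C1qb, complement genes of macrophages, were at 0 in AML replicate 3. Dendritic cell markers (8 genes, 5 called lower, of which 1 reached it in MPN only, and 3 not passed) summed to 2665, 7699 and 12404 TPM with AML, the order of Spi1 in these mice, and to 22163, 23715 and 25313 TPM with MPN, also the order of Spi1. Cd74, which is also active in B cells and macrophages, made up most of that sum and had the same order of mice in MPN. Of the other markers, Itgax, Xcr1, Clec9a and Zbtb46 were lowest in MPN replicate 3, the mouse with the highest Spi1. Cd209a, Siglech and Irf4 were highest in that mouse. Granulocyte-monocyte progenitor markers (6 genes, 2 called higher and 4 not passed) summed to 3813, 10494 and 4931 TPM with AML and 4564, 3267 and 3253 TPM with MPN. In AML the highest sum and the highest Cebpa were in the same mouse, and in MPN they were not. T and NK cell markers summed to 5.29 to 7.78 TPM in AML and 179 to 295 TPM in MPN. Of these 8 genes, 5 reached the filter in MPN only, and of the other 3, 2 were called lower and 1 did not pass. The part of cell make-up in the levels of the 8 factors was not tested.

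In the RPKM table, the authors' other measure of the same libraries, the factors behaved alike. The ratio of means, AML to MPN, was 3.49 for Gfi1, 2.05 for Cebpa, 2.31 for Cebpb, 1.10 for Cebpg, 0.718 for Spi1, 0.666 for Cebpe, 0.609 for Gfi1b and 0.554 for Cebpd. The corresponding TPM ratios were 3.44, 2.05, 2.27, 1.09, 0.720, 0.649, 0.592 and 0.561. Gfi1, Cebpa and Cebpb passed in that table too (limma adjusted p = 0.00207, 0.0171 and 0.0202), and the other 5 did not.

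On GRCm38, Cebpa (ENSMUSG00000034957) spans bases 35119293 to 35121928 of chromosome 7, plus strand, 62720 bases from Cebpg (ENSMUSG00000056216), which spans 35046422 to 35056573, minus strand. Cebpb (ENSMUSG00000056501) is a gene of 1 exon on chromosome 2 from 167688915 to 167690418, plus strand, and overlaps Tmem189 on the other strand. Cebpd (ENSMUSG00000071637) is on chromosome 16 from 15887286 to 15891031, plus strand, and overlaps Spidr on the other strand. Tmem189 and Spidr did not pass, with log2 fold changes of 0.22 and -0.06 (limma adjusted p = 0.241 and 0.819). The libraries kept strand, but the sources used here do not state whether the authors' counting used it, so values of overlapping genes are uncertain to that extent. An antisense transcript, Gm45091, also overlaps Cebpa, another, Gm45095, overlaps Cebpg, and a noncoding transcript, A430072P03Rik, overlaps Gfi1. Cebpe (ENSMUSG00000052435) is on chromosome 14 from 54710360 to 54712174, minus strand, and Spi1 (ENSMUSG00000002111) on chromosome 2 from 91082390 to 91115756, plus strand. Gfi1 (ENSMUSG00000029275) is on chromosome 5 from 107716657 to 107726036 and Gfi1b (ENSMUSG00000026815) on chromosome 2 from 28609450 to 28621982, both on the minus strand.

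Partners of the C/EBP proteins were mixed. Of 8 listed, 4 rose, 2 fell and 2 did not pass, with a median log2 fold change of 0.32 against 0.13 for all tested genes. Among all tested genes 20.1% were called higher and 10.0% lower, the background for this and the following lists. Runx1, a factor that acts upstream of Cebpa and Spi1, rose from 32.9 ± 3.92 to 64.8 ± 3.62 TPM (SD, n = 3 each; limma adjusted p = 0.00192). Myb, a factor of immature progenitors, rose from 98.0 ± 33.0 to 255 ± 68.0 TPM (limma adjusted p = 0.013). Trib2, whose pseudokinase product directs C/EBP-alpha to degradation, fell from 5.65 ± 2.91 to 0.743 ± 0.615 TPM (limma adjusted p = 0.0153). With 1.42, 0.59 and 0.22 TPM in the AML mice, Trib2 reached the filter with the help of the MPN mice, where it was high. The Myb call ended with the term for sex (limma adjusted p = 0.169), and that of Trib2 when MPN replicate 1 or 2 was left out (limma adjusted p = 0.0566 and 0.0607). Trib3, another of the 4 that rose, reached the filter in the AML mice only and cannot be tested with 1 of them left out. With any mouse left out, 2 of the list rose, and 0 fell in the absence of MPN replicate 1 or 2.

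Partners and antagonists of PU.1 included the strongly differing genes Irf4 and Spib. Of 11, 2 rose, 4 fell and 5 did not pass, with a median log2 fold change of -0.68. Of the 4, Spib and Egr2 reached the filter in the MPN mice only, so their place in the test was set by the group where they were high. Among the 9 that reached 1 TPM in at least 1 mouse of each group, 2 rose and 2 fell. The 2 that fell, Irf4 and Spic, had 0.97 and 0.85 TPM in 1 AML mouse each. They too reached the filter with the help of the MPN mice, where they were high. Irf4, which binds composite sites with PU.1, measured 0.97, 1.15 and 1.26 TPM with AML and 33.4, 29.8 and 37.8 TPM with MPN (log2 fold change -4.02, limma adjusted p = 9.94e-05). Spib, the closest ETS relative of PU.1 here, measured 0.20, 0.69 and 0.24 TPM in AML and 36.6, 36.4 and 69.0 TPM in MPN, without overlap. Both genes are also known from dendritic cells and B cells, whose markers were lower in AML. Of 4 tested B cell markers 3 were called lower, 2 of which reached the filter in MPN only. All 6 on the list summed to 26.9 to 36.3 TPM in AML and 60.5 to 75.8 TPM in MPN. Most of the AML sums was Cd79b, which did not pass. It measured 26.7, 33.9 and 26.05 TPM with AML and 32.6, 26.9 and 38.2 TPM with MPN. Irf4 is itself on the dendritic cell list. The part of these cells was not tested. With any of the MPN mice left out, Spib and Egr2 no longer reached the filter and were not tested, and the count that fell was 2. Gata2, a stem and mast cell factor that can oppose PU.1, rose from 7.81 ± 3.10 to 55.9 ± 35.9 TPM (limma adjusted p = 0.00577). The Gata2 call ended with the term for sex (log2 fold change 1.99, adjusted p = 0.0763). Mast cell and basophil markers, a list that includes Gata2, summed to 126 to 249 TPM in AML and 35.4 to 85.0 TPM in MPN, with 3 of 5 tested called higher and 2 not passed, and their part in the Gata2 values was not tested.

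Corepressors of Gfi1 rose by small amounts or did not pass, apart from Rcor2. Of 11 listed, 5 rose and 6 did not pass, against 20.1% of all tested genes called higher. The median log2 fold change was 0.26. Rcor2, a CoREST family scaffold, rose from 1.53 ± 0.397 to 11.2 ± 3.71 TPM (SD, n = 3 each; limma adjusted p = 0.00107). Hdac2, a histone deacetylase, rose from 72.1 ± 8.80 to 98.0 ± 3.16 TPM (limma adjusted p = 0.0298). Kdm1a, which encodes LSD1, rose from 46.3 ± 3.12 to 63.3 ± 8.18 TPM (limma adjusted p = 0.0395). The calls of Hdac2 and Kdm1a ended in 6 and 7 of 16 alternatives, and that of Rcor2 in none of 16. With 1 mouse left out the count that rose was 1 to 3, lowest in the absence of AML replicate 2 or MPN replicate 2 or 3.

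Genes of the early granulocyte program that depend on C/EBP-alpha did not move as a block. Of 8, 2 rose, 1 fell and 5 did not pass, with a median log2 fold change of 0.26. Ctsg, a protease of primary granules, measured 1024, 1728 and 1095 TPM with AML and 387, 302 and 314 TPM with MPN (limma adjusted p = 0.00109). Ms4a3, a membrane protein of granulocyte-monocyte progenitors, rose from 124 ± 20.7 to 283 ± 86.3 TPM (limma adjusted p = 0.00903). Il6ra, the interleukin-6 receptor, fell from 83.7 ± 11.8 to 44.6 ± 11.1 TPM (limma adjusted p = 0.0118), a call that ended without MPN replicate 3 (limma adjusted p = 0.0533) and with the term for sex (0.152). With that term the Ms4a3 call ended as well, its log2 fold change going from 1.15 to 1.08 (limma adjusted p = 0.0908). In the absence of AML replicate 1 or 2 the count that fell was 2. Most of these genes are also on the list of granulocyte-monocyte progenitor markers.

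Later neutrophil granule and surface genes, listed as secondary granule targets of C/EBP-epsilon, were lower in AML. Of 11, 8 fell and 3 did not pass, against 10.0% of all tested genes called lower. The median log2 fold change was -1.25. Mmp9, a gelatinase, measured 24.9, 28.4 and 25.4 TPM with AML and 96.3, 54.1 and 66.9 TPM with MPN (limma adjusted p = 0.00331). Mmp8, a collagenase, fell from 49.7 ± 11.2 to 24.4 ± 1.21 TPM (limma adjusted p = 0.00625), and Cd177, a neutrophil surface protein, from 206 ± 56.1 to 81.1 ± 27.1 TPM (limma adjusted p = 0.0119). The Cd177 call, at a log2 fold change of -1.36, ended without MPN replicate 3 (log2 fold change -1.38, limma adjusted p = 0.0531) and with the term for sex (log2 fold change -1.27, limma adjusted p = 0.11). Without MPN replicate 1 the count that fell was 3, without MPN replicate 3 it was 2, and with the term for sex it was 2. Several of these genes are themselves neutrophil markers, so this count and the neutrophil sum given with Cebpe share genes.

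Inflammatory targets of C/EBP-beta and C/EBP-delta were mostly too low to test. Of 10, 6 were below the filter, 1 rose, 1 fell and 2 did not pass. Il1b, the interleukin-1 beta gene, measured 0.55, 2.45 and 2.74 TPM with AML and 30.3, 30.6 and 40.5 TPM with MPN (log2 fold change -3.67, limma adjusted p = 0.000546). Being under 1 TPM in AML replicate 1, Il1b reached the filter with the help of the MPN mice, where it was high. Ccl3, a chemokine, stood at 20.4, 6.90 and 6.26 TPM in AML and 1.86, 2.64 and 2.01 TPM in MPN (limma adjusted p = 0.0165). The Ccl3 call ended in the RPKM table, without MPN replicate 1 or 3 and with the term for sex (adjusted p of 0.0563 to 0.208). Socs3, a cytokine signalling inhibitor, did not pass, with overlapping groups (limma adjusted p = 0.421).

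Among 17 tested PU.1 targets, 8 fell, 2 rose and 7 did not pass, with a median log2 fold change of -0.84. Among all tested genes 10.0% were called lower and 20.1% higher. Fcgr1, one of the 8, reached the filter in the MPN mice only, and among the other 16 targets 7 fell and 2 rose. Ctss, a lysosomal protease, measured 159, 185 and 399 TPM with AML and 738, 897 and 1100 TPM with MPN (limma adjusted p = 0.00547). Cybb, the catalytic subunit of the phagocyte oxidase, fell from 221 ± 37.8 to 59.7 ± 29.8 TPM (limma adjusted p = 0.00624), a log2 fold change of -1.98. With the term for sex it was -1.93 and the call ended (limma adjusted p = 0.059). Fcgr3, an Fc receptor of myeloid cells, went the other way, from 60.1 ± 13.3 to 134 ± 22.1 TPM (limma adjusted p = 0.00439). Without MPN replicate 1 or 2, 4 of the targets fell, without MPN replicate 3 it was 3, Fcgr1 not being tested in these fits, and with the term for sex 1. The markers of monocytes, macrophages and dendritic cells that were called lower are given above, and their part in these falls was not tested. Of the targets, Csf1r, Emr1, Fcgr1 and Cd68, are on the list of monocyte and macrophage markers too.

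Of 13 genes described as repressed by Gfi1 or Gfi1b in other settings, 7 rose and 6 did not pass. Among all tested genes 20.1% were called higher. The median log2 fold change of the list was 1.06. Gata3, one of the 7, reached the filter in the AML mice only, and among the other 12 genes 6 rose. Zbtb16, one of these 6, had 0.97 TPM in MPN replicate 3 and reached the filter with the help of the AML mice, where it was high. With 1 mouse left out 5 to 7 rose, and 1 fell without AML replicate 3. Meis1, a homeobox gene of stem cells, measured 35.1, 29.6 and 23.1 TPM with AML and 5.20, 4.27 and 4.07 TPM with MPN (limma adjusted p = 0.000291). Id1, an inhibitor of E proteins, rose from 8.87 ± 1.91 to 59.5 ± 17.9 TPM (limma adjusted p = 0.000524), and Cdkn1a, which encodes the cell cycle inhibitor p21, from 14.9 ± 2.27 to 45.7 ± 6.46 TPM (limma adjusted p = 0.000862). All 3 passed in each of the 16 alternatives. These genes are candidates from work in other cells, and the list holds no measure of Gfi1 binding here. Stem cell markers, which include Meis1, (8 genes, 5 called higher, of which 1 reached the filter in AML only, 2 lower and 1 below the filter) summed to 334 to 496 TPM in AML and 144 to 258 TPM in MPN. Most of the AML sums was Cd34, at 370.5, 386 and 257 TPM with AML and 59.1, 42.6 and 47.0 TPM with MPN. The 2 called lower were Procr and Ly6a. The part of stem cells in these values was not tested.

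**Figure D5:**
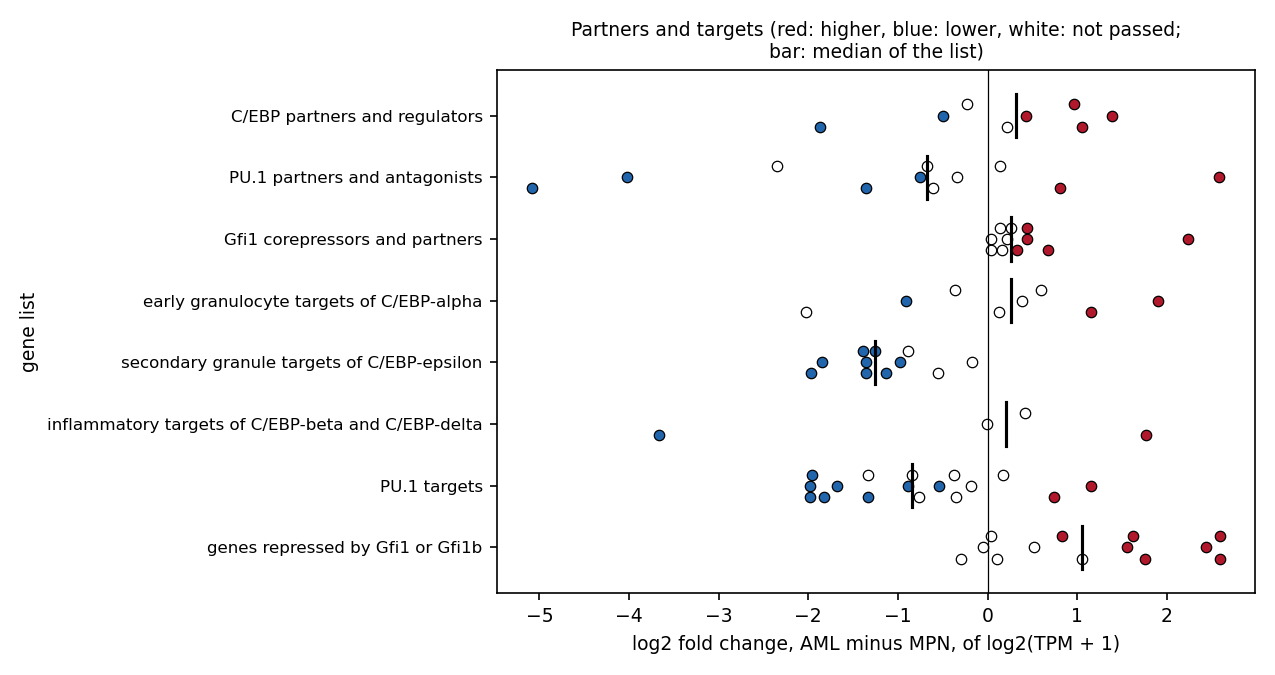
Log2 fold change, AML minus MPN, on the log2(TPM + 1) scale for each tested gene of 8 lists of partners and targets, red where called higher, blue where called lower and white where not passed, with a bar at the median of each list. Medians run from -1.25 for the list of secondary granule targets to 1.06 for genes described as repressed by Gfi1 or Gfi1b.

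To find genes that varied over the 6 mice as each factor did, centred log2(TPM + 1) values were compared by their root mean square difference, over 9764 named genes with a mean of at least 5 TPM. Nearest to Gfi1 were Zc3hav1l and Nfe2 (differences of 0.08 and 0.09), and Nfe2, a factor of megakaryocytes and erythroid cells, had means of 188 ± 44.4 TPM in AML and 58.1 ± 10.6 TPM in MPN (SD, n = 3 each). Nearest to Spi1 were Selplg, the P-selectin ligand of leukocytes, and Ctsz, a lysosomal protease (0.05 and 0.07). Cebpe was closest to Gpc1 and Trem3 (0.11 each), Trem3 being a myeloid receptor, and Cebpd to Clec4a2, a lectin of myeloid cells, and Pycard, the inflammasome adaptor (0.09 and 0.19). Gfi1b was closest to Asns, the asparagine synthetase, and Hemgn, a nuclear protein of erythroid cells (0.12 and 0.14). Cebpb was closest to Rab27a, a regulator of granule release, and Mettl7a1 (0.07 each). Cebpa was closest to Pemt and Paqr8 (0.16 and 0.17), and Cebpg to Srf and Add3 (0.03 and 0.04). All 6 mice and the difference between the groups enter these likenesses, which are descriptions over few libraries.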

How the data were processed

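RNA-seq of c-Kit+ splenocytes from 3 AML and 3 MPN mice was used. The authors deposited TPM by gene symbol, which is gene-level RSEM output, per the file headers. The RPKM table that the authors also deposited is keyed by Ensembl gene and served as a check. Per the submitters' processing notes, the tools were TopHat2, Bowtie2 and RSEM and the builds mm9 and mm10. The sources used here do not tie a build or annotation to either table. Libraries were poly-A selected and stranded, per the labels' protocols. Read depth cannot be had from TPM. It was read from low RPKM values, all of which were whole numbers of steps of 1 read to within 0.05. Symbols were found for 25213 of 25991 RPKM identifiers, and 27 TPM symbols had become dates. Columns were matched to mice by animal number, and replicate numbers follow accession order and pair no mice.

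Genes reaching 1 TPM in 3 or more libraries were tested as log2(TPM + 1) in R 4.3.3 by limma 3.58.1 (trended prior variance, two-sided), with Benjamini-Hochberg adjustment over all 12223 genes. Fold changes are on that scale and understate changes of low genes. The fit was also run on simulated data with independent noise and fewer changed genes than were called here. No conclusion is drawn from that run. The 8 factors and the lists of partners, targets and markers were chosen with earlier results of these data known. Named genes are the 8 factors, the 3 genes of each partner or target list with the smallest p, and the 2 genes nearest to each factor. Other genes were named after their values were seen. Gene positions come from GENCODE M21 on GRCm38 and promoters from RefSeq on GRCm38.p6. Alternatives were other pseudocounts, filters, scalings and weights, the RPKM table, a term for sex read from Xist, and leaving out each mouse. Counts for the lists under these alternatives were added after seeing the data.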

Additional observations from a re-analysis of the deposited data

How the results depend on the processing

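Gfi1 passed in each of 16 alternatives, Cebpa in 15 and Cebpb in 11. The fold change of each of the 8 factors kept its sign in all of them. The count of factors called higher was 3, and 1 with the term for sex, and the count called lower was 0, and 1 with array weights, whose estimation stopped before convergence. Leaving out 1 mouse at a time gave 2 to 3 called higher and 0 to 2 called lower, the 2 without AML replicate 2. Over all tested genes, 2454 were higher and 1224 lower. Array weights called 2131 lower, and the term for sex 673 higher and 535 lower. Leaving out 1 mouse at a time gave 1198 to 2024 higher and 514 to 1379 lower. In the lists of partners and targets, 23 genes were higher and 24 lower. The term for sex gave 10 and 9, and leaving out 1 mouse at a time gave 13 to 19 and 9 to 25. Fits with the term for sex or without a mouse have fewer residual degrees of freedom, and beyond that the cause was not tested. The log2 difference of each ratio between factors moved by less than 1 SD between mice under every alternative run for it, and that of Cebpa to Cebpb, near 0, took both signs. The precision of all values is limited by 3 mice a group, and TPM holds no read counts, so counting error is unknown.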
